A study of Homo sapiens with 13 samples.

Results

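Heat shock chaperones are proteins that bind unfolded or newly made polypeptides and keep them from aggregating. The 10 chaperone genes described here were HSPA1A, HSPA1B, HSPA8, HSPA5, HSPD1, HSP90AA1, HSP90AB1, HSPH1, HSPB1 and DNAJB1, out of 14575 gene names with reads. They were chosen by name with earlier results of these data in view, and the total reads of each gene and the shares of its 3' ends in R749H against wild-type cells were the measures behind the choice. The values of these 2 measures are therefore a description of the 10 genes, without a test. In all, 8 of the 10 passed the filter on low counts, together with 9486 other genes.

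The study asked how the speed of RNA polymerase II (Pol II) relates to where mRNAs are cleaved and polyadenylated. In HEK293 Flp-in T-REx cells, a human embryonic kidney line, mRNA 3' ends were sequenced by 3' READS. These cells carried an integrated pcDNA5 construct for Rpb1, the largest subunit of Pol II, in an α-amanitin resistant form, which was either wild type (WT, 5 replicates) or R749H, a mutant that slows elongation (4 replicates). In both groups expression was induced with doxycycline at 2 µg/ml. The sample labels give 24 hr, and the study's methods give a shorter time before α-amanitin. α-amanitin at 2.5 µg/ml was then applied for 42 hr against the cell's own Rpb1, by the methods together with doxycycline. Both groups thus share the doxycycline, the α-amanitin and the host line, and no untreated cells are compared here. Other differences between the WT and R749H cell lines cannot be told apart from the mutation. Reads at mRNA 3' ends do not show the altered codon of Rpb1, so the R749H label could not be checked from them.

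Under stress, the transcription factor HSF1 binds heat shock elements in chaperone promoters and raises transcription of the genes for cytosolic chaperones. The stress-inducible heat shock genes are a textbook case of Pol II that pauses after initiation and is then released. HSP70 proteins fold clients in cycles of ATP hydrolysis, J-domain proteins such as DNAJB1 deliver clients to them, nucleotide exchange factors such as HSPH1 reset them, and HSP90 acts on clients that are nearly folded. In the endoplasmic reticulum, the unfolded protein response raises the HSP70 member HSPA5.

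Libraries held 2479851 to 10135014 reads within 5000 nt of a stop codon in the wild-type group and 3863468 to 6475987 in the R749H group. One library stood apart: R749H replicate 3 listed 41033 isoforms, and reads numbered 1 at 6.60% of these, whereas the range over all other libraries was 30.05% to 36.2%. Values without it are given for the totals of the members and for the distal share of DNAJB1. For the other genes named, they are given where leaving it out changed a call or moved a log2 change by over 1.5 times. Shares at the ends of the other members were not computed without it. Of the markers of the line, KRT18, KRT8 and VIM were read in all 9 libraries, at up to 842, 101 and 142 RPM (reads scaled to a common library total by TMM factors), whereas NEFL had no read and NEFM had 2 in all. PAX2 reached 4.08 RPM at most, and LHX1 had 9 reads in all. Summed over the 7 markers, levels were 483 to 728 RPM in the wild-type libraries and 570 to 1004 in the R749H libraries. KRT18 alone ran from 323 to 842 RPM over the 9 libraries. The 5 markers of leukocytes, hepatocytes, fibroblasts and endothelium summed to at most 0.699 RPM in any library.

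The 3' ends that carry the description are shown first, since reads are counted at these positions. All 10 stop codons of the files matched an annotated stop codon in GENCODE for GRCh37. Each line gives the last 30 nt of the RNA, 5′ to 3′, with the poly(A) signal hexamer AATAAA or ATTAAA in capitals where these 30 nt hold it, for the end of DNAJB1 near the stop codon, its end farther downstream, and the main ends of HSPA5, HSPB1, HSP90AA1 and HSPA1B.
DNAJB1 proximal (GRCh37 chr19:14626591-14626620, minus strand): agagcatatattacaatctttcaaagtcgc
DNAJB1 distal (GRCh37 chr19:14625582-14625611, minus strand): cgacagcATTAAAgactgatgctaaacctc
HSPA5 (GRCh37 chr9:127998519-127998548, minus strand): caccAATAAAtgtttgttatttacactggt
HSPB1 (GRCh37 chr7:75933580-75933609, plus strand): ttttctcaAATAAAgttcaaagcaaccacc
HSP90AA1 (GRCh37 chr14:102547386-102547415, minus strand): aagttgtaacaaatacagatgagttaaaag
HSPA1B (GRCh37 chr6:31798002-31798031, plus strand): ttaaatatgaaaAATAAAatgttaaacttt
All 6 positions lie in annotated 3' UTRs of these genes. The proximal end of DNAJB1 had no AATAAA, no ATTAAA and none of 10 listed variants in its last 40 nt, and the end of HSP90AA1 had only the variant AATACA. Among 7874 genes that averaged 20 reads or more per library, the most-read end had AATAAA in 67.6%, ATTAAA but not AATAAA in 16.7%, only a variant in 11.4% and none in 4.34%. The proximal end of DNAJB1 is not the most-read end of its gene, and such shares were not computed for lesser ends.

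DNAJB1, the J-domain partner of cytosolic HSP70, ended at 2 places that lie 1009 nt apart, 161 and 1170 nt past the stop codon. Both are in the 3' UTR on the minus strand of chromosome 19, and the distal one is 1 nt from the annotated end of the transcript. The proximal zone, meaning all isoforms within 24 nt of the proximal end, held 18, 40, 42, 131 and 53 reads in wild-type replicates 1 to 5 and 119, 77, 49 and 147 reads in R749H replicates 1 to 4. In percent of all DNAJB1 reads this was 6.47, 7.60, 4.74, 9.91 and 7.70 in the wild-type libraries and 14.7, 16.7, 10.6 and 21.7 in the R749H libraries. The 4 R749H libraries lay above all 5 wild-type libraries.

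The means were 7.29% ± 1.89 (SD, n = 5) in wild type and 15.9% ± 4.61 (SD, n = 4) in R749H, and the distal zone held 92.7% ± 1.89 and 83.8% ± 4.60 of the reads. Exact 95% binomial intervals, which cover counting error only, show how close the nearest libraries came: R749H replicate 3 was at 7.97% to 13.8%, which overlapped the intervals of 4 of the 5 wild-type libraries, the exception being replicate 3 at 3.44% to 6.35%. The difference in the distal share, R749H minus wild type, was -8.88 percentage points, and -10.7 points without R749H replicate 3.

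**Figure D1:**
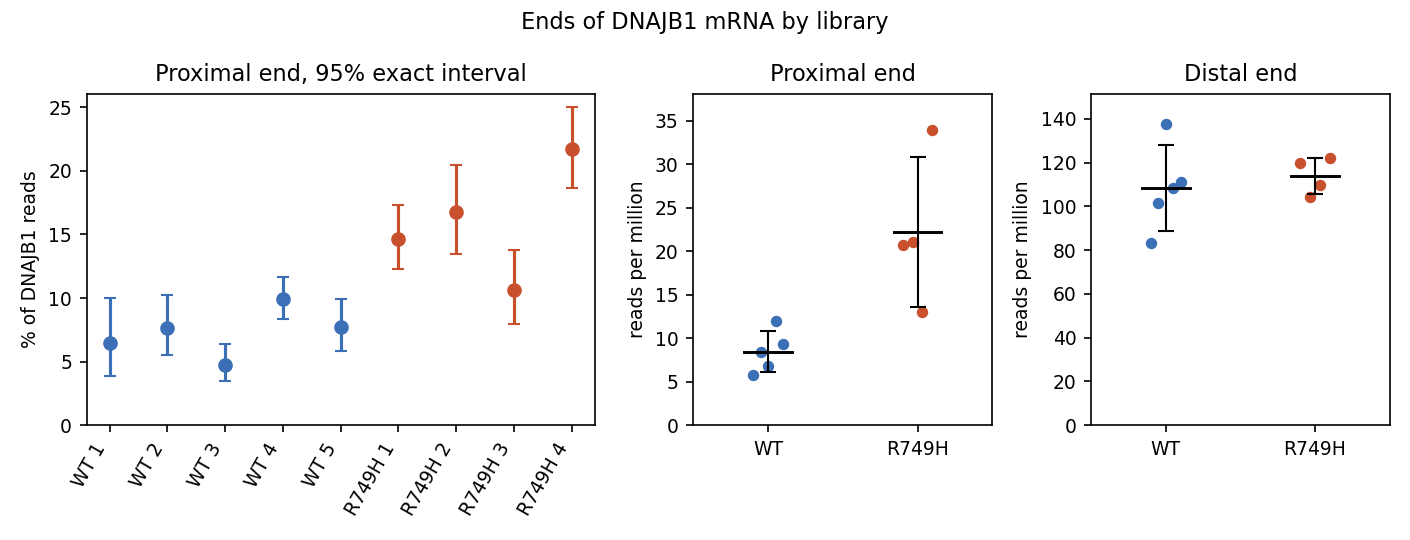
DNAJB1 3' ends in each library. Left, percent of the gene's reads in the proximal zone with the exact 95% binomial interval. Middle and right, RPM at the proximal and distal zones, with points for libraries and black lines for mean and SD (n = 5 WT, n = 4 R749H). The R749H libraries lie above the wild-type ones at the proximal zone, with means of 22.2 and 8.43, and among them at the distal zone.

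Taken as levels in RPM, the proximal zone was at 8.43 ± 2.38 (SD, n = 5) in wild type and 22.2 ± 8.64 (SD, n = 4) in R749H, a ratio of means of 2.63. The distal zone was at 108 ± 19.7 and 114 ± 8.37, a ratio of 1.05, and there the groups overlapped fully. The TMM factors set most genes equal between libraries, and fewer cells cannot be told apart from less RNA per cell in such bulk samples.

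Zones were set only for the 8 genes that passed the filter. Apart from DNAJB1, only HSP90AB1, a cytosolic HSP90 made in unstressed cells, had a second zone with at least 5% of its reads. Its zone at 179 nt held 6.78% ± 2.83 (SD, n = 5) in wild type and 4.13% ± 4.46 (SD, n = 4) in R749H, from 920 reads of this gene in all libraries. These groups overlapped.

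Within their single zones, the members differed in how sharply they ended. HSPD1, the mitochondrial chaperonin, ended at 460 nt in 97.4% of its reads, and HSP90AA1, the stress-inducible cytosolic HSP90, ended at 663 nt in 86.2%. By contrast, the most-read end of HSPA5 held 29.8% of its reads and that of HSPB1, a small heat shock protein, 39.2%. The median over the 9494 genes tested was 56.9%, with quartiles of 40.7% and 77.3%. HSPA5 and HSPB1 lay below the lower quartile, and HSPD1 and HSP90AA1 above the upper one.

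HSPA5 used 5 adjacent positions, 350 to 354 nt past the stop codon, which held 98.4% of its reads. The shares from 350 to 354 nt were 10.0%, 22.4%, 29.5%, 24.9% and 11.3% in wild type and 8.81%, 20.2%, 31.0%, 27.5% and 10.9% in R749H (means of 5 and 4 libraries). The R749H means were lower at the first 2 positions and higher at the next 2, with libraries of both groups overlapping at all 5. The mean position in this zone was 352.03 nt in wild type and 352.09 nt in R749H. The annotated end of the gene, 1739 nt past the stop codon, had 105 reads in all libraries.

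HSPB1 used 6 positions between 115 and 123 nt. The most-read one, at 119 nt, held 38.9% ± 2.42 (SD, n = 5) in wild type and 38.2% ± 3.35 (SD, n = 4) in R749H. R749H replicates 1 to 4 were at 41.0%, 39.7%, 33.4% and 38.7%, so the lower R749H mean rests on replicate 3. The mean position of HSPB1 was 119.85 and 119.70 nt, and 3 of 4 R749H libraries lay below all wild-type libraries. HSPH1, a nucleotide exchange factor of the HSP110 group, had 61.4% ± 5.26 (SD, n = 5) of its reads at 690 nt in wild type and 52.8% ± 4.59 (SD, n = 4) in R749H. Its position at 684 nt held 24.3% ± 6.30 and 30.1% ± 3.34. As for HSPB1, 3 of 4 R749H libraries had a mean position below all wild-type libraries, with means of 688.00 and 687.53 nt. HSPA1B, a stress-inducible cytosolic HSP70, ended at 378 and 379 nt with means of 53.6% and 41.5% in wild type and 54.2% and 40.8% in R749H. The means were close, but the R749H libraries were spread more widely. At 378 nt R749H replicates 1 to 4 were at 57.6%, 58.4%, 48.3% and 52.5%, and the wild-type libraries at 51.9% to 56.4%.

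**Figure D2:**
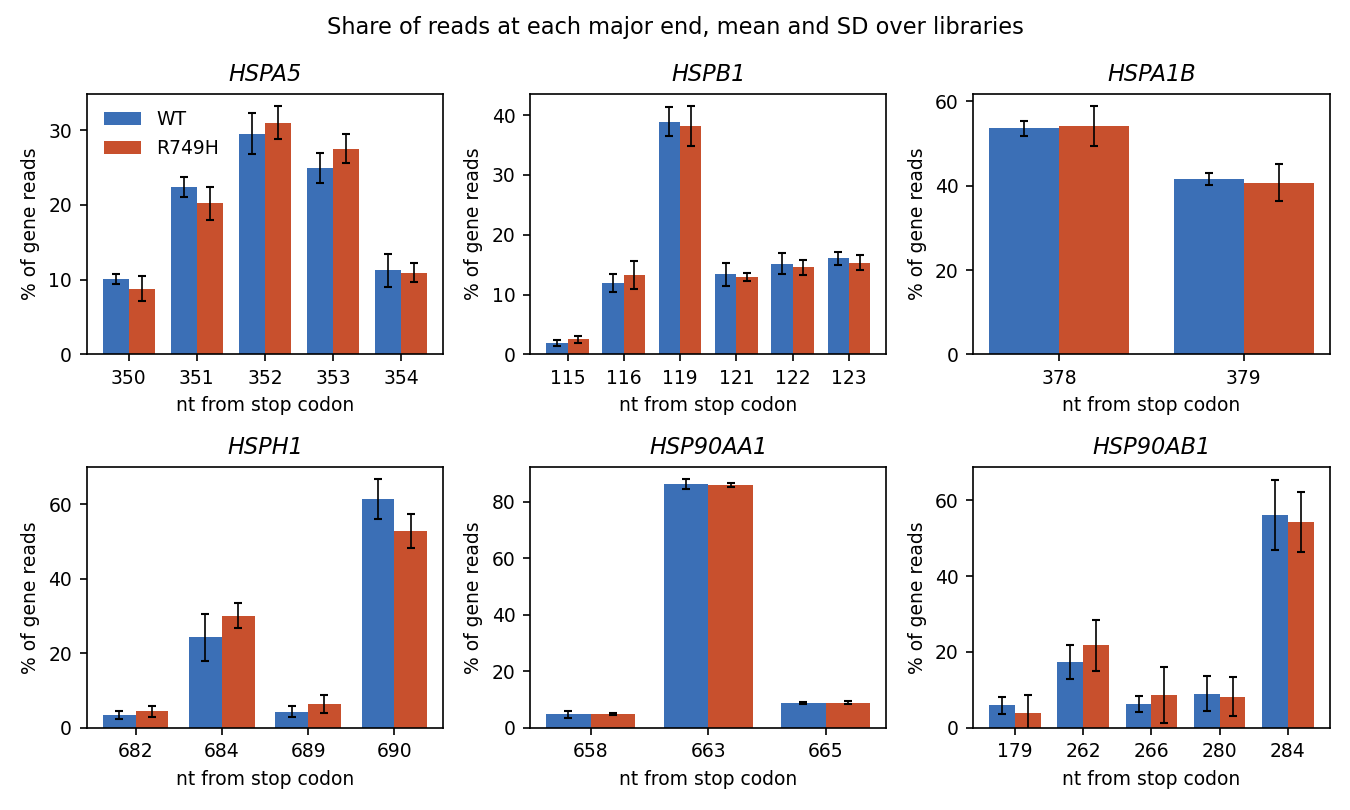
Share of each gene's reads at its major 3' ends, in nt past the stop codon, as mean and SD over 5 WT (blue) and 4 R749H (orange) libraries, for 6 genes. A major end has at least 5% of the reads of the most-read end. HSPA5 spreads over 350 to 354 nt, HSP90AA1 sits at 663 nt, and HSPH1 moves from 61.4% to 52.8% at 690 nt.

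In gene totals, the limma fit across all 9494 genes placed 10.9% past an adjusted p of 0.05 and higher in R749H and 12.9% past it and lower. Of the 8 chaperone genes that passed the filter, 3 were on the higher side and 0 on the lower. Under the authors' scaling alone these counts were 0 and 1, beside 431 higher and 2627 lower of 9472 genes. These counts stand only beside the shares of all genes and are no test of the 8 genes, because this contrast was behind their choice. The 2 genes whose groups did not overlap, HSP90AA1 and HSPH1, stand beside 19.9% of all genes with no overlap. Since 3' READS gives 1 read per 3' end, levels need no correction for length. How far mapping and the filter on non-templated As change the recovery of reads from gene to gene was not tested. Levels of different genes are therefore not compared as amounts of mRNA.

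HSPA1A and HSPA1B are nearly identical in coding sequence and make nearly the same HSP70 protein, but their 3' UTRs differ. HSPA1B, on the plus strand of chromosome 6, was at 138, 214, 197, 164 and 155 RPM in wild-type replicates 1 to 5 and 336, 331, 208 and 293 in R749H replicates 1 to 4. The means were 174 ± 31.2 (SD, n = 5) and 292 ± 59.1 (SD, n = 4). R749H replicate 3 fell inside the wild-type range, and the other 3 lay above it. The log2 change was 0.74 (SE 0.19), and 0.92 without that library.

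HSPA1A had 2 reads in all libraries, both in R749H replicate 2, and none near its annotated end. In the other libraries a count of 0 allows up to 3 reads, or 0.273 to 0.960 RPM, which covers counting error only. Whether reads of HSPA1A were lost in mapping was not tested, so the zeros set no bound on its expression. The last 30 nt of its annotated end occur once in GRCh37, as do those of HSPA1B.

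HSP90AA1 was the most-read member. It had 359, 478, 408, 503 and 540 RPM in the wild-type libraries and 717, 733, 643 and 806 in the R749H libraries, with means of 458 ± 73.2 (SD, n = 5) and 725 ± 66.8 (SD, n = 4). Each R749H library was above each wild-type library. The log2 change was 0.67 (SE 0.16) and 0.76 without R749H replicate 3.

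HSPH1 showed the same order at a lower level. Its values were 41.6, 32.2, 41.6, 33.8 and 41.4 RPM in wild type and 57.7, 57.0, 54.0 and 68.9 in R749H, with means of 38.1 ± 4.73 (SD, n = 5) and 59.4 ± 6.53 (SD, n = 4). The log2 change was 0.64 (SE 0.18), and 0.71 without R749H replicate 3. Under the authors' scaling alone, the log2 changes of HSPA1B, HSP90AA1 and HSPH1 were 0.40, 0.33 and 0.30, and none was past the threshold. Relative to the median of all genes they were 0.80, 0.74 and 0.71, and 0.81, 0.74 and 0.71 with TMM factors. Whether groups overlapped was read only in RPM with TMM factors.

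**Figure D3:**
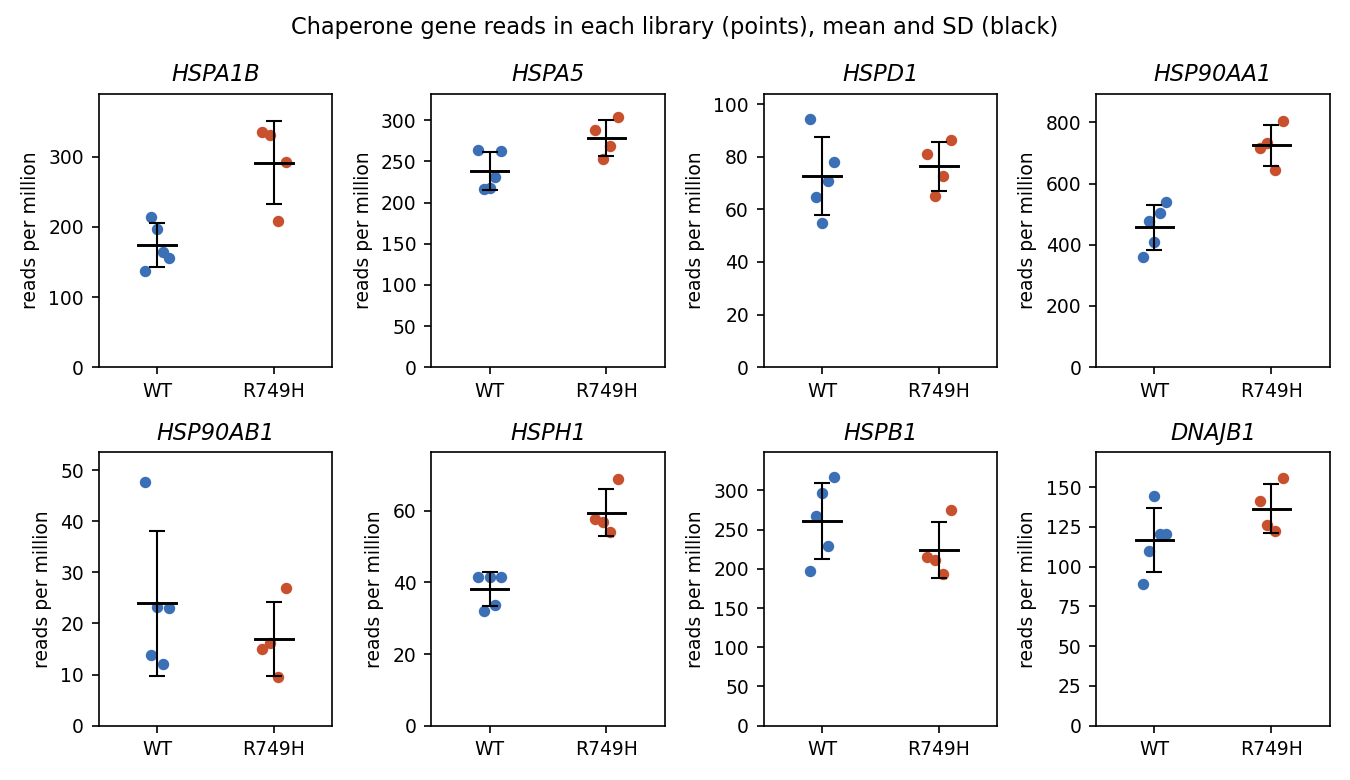
RPM of the 8 chaperone genes that passed the filter, by library. Points are libraries and black lines are mean and SD (n = 5 WT, n = 4 R749H), on axes that start at 0. HSP90AA1 and HSPH1 do not overlap between the groups, and the others do.

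DNAJB1 totals were 88.9, 110, 144, 120 and 120 RPM in wild type and 141, 126, 123 and 156 in R749H, a log2 change of 0.24 (SE 0.17) with overlapping groups. Leaving out R749H replicate 3 gave 0.31, and leaving out wild-type replicate 1, the lowest library, gave 0.14. HSPA5, the HSP70 of the endoplasmic reticulum, was at 264, 216, 217, 232 and 263 RPM in wild type and 289, 253, 269 and 303 in R749H, and 3 of 4 R749H libraries lay above the wild-type range. Its log2 change was 0.23 (SE 0.15), and 0.27 without R749H replicate 3. HSPD1 was at 72.6 ± 14.8 and 76.3 ± 9.29, a log2 change of 0.09, and 0.13 without R749H replicate 3. Leaving out each library in turn gave -0.01 (without wild-type replicate 3) to 0.19 (without wild-type replicate 1) for HSPD1. All 3 changes turned negative under the authors' scaling alone, at -0.11, -0.12 and -0.26. That scaling moves the median of all genes from -0.07 to -0.41, and relative to the median the 3 changes were 0.30, 0.29 and 0.15 under both scalings.

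HSPB1 had 197, 267, 296, 229 and 317 RPM in wild type and 216, 211, 193 and 275 in R749H, and HSP90AB1 had 47.7, 13.8, 23.2, 12.1 and 23.1 against 15.0, 16.2, 9.58 and 27.0. The groups overlapped for both genes. The log2 changes were -0.22 (SE 0.18) and -0.42 (SE 0.36). The first was -0.12 without R749H replicate 3, and the second was -0.13 without wild-type replicate 1, the library with 47.7, -0.15 without R749H replicate 3 and -0.66 without R749H replicate 4. HSP90AB1 also had the widest spread between replicates of the 8 genes, 0.71 on the log2 scale, at percentile 84.7 of all genes tested.

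HSPA8, the constitutive cytosolic HSP70, had 10 reads in all libraries, of which 8 lay 243 nt past the stop codon, near its annotated end at 245 nt, and no comparison of its level is made. GENCODE lists 17 pseudogenes of HSPA8 and 18 of HSPD1, and whether reads of such copies were lost in mapping was not tested. The last 30 nt of the HSPA8 end occur once in GRCh37, while those of HSPD1, HSP90AA1 and the HSP90AB1 end at 262 nt occur 2 times and those of the distal DNAJB1 end 3 times. With 77 nt each of these ends occurs once.

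The promoters of the 10 genes were read from RefSeq on GRCh38.p14, in a window around each annotated start that lies mostly upstream, because the genes are known for shared heat shock elements. At least 1 promoter of 8 of the 10 genes held GAANNTTC or TTCNNGAA (both strands, overlaps counted), and the 2 exceptions were HSPA5 and HSPH1. Counted by promoter, 9 of the 16 listed for these genes held a match, beside 13.5% of 35116 promoters. The element of the unfolded protein response, CCAAT and CCACG with 9 bases between, was in the promoter of HSPA5 alone among the 10, and in 0.0769% of all promoters. Of the examples below, the first 3 show the heat shock element and the last the other element, in capitals.
HSPA1B (GRCh38 chr6:31827622-31827651, plus strand): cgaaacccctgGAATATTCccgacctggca
HSP90AA1 (GRCh38 chr14:102087114-102087143, minus strand): ggggagggttcTTCCGGAAGGTTCgggagg
DNAJB1 (GRCh38 chr19:14518456-14518485, minus strand): cgggcggggcgGAAGGTTCtggagggggct
HSPA5 (GRCh38 chr9:125241386-125241415, minus strand): ccttcaCCAATCGGCGGCCTCCACGacggg
A match is a run of letters, and no binding was measured here.

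The other chaperone genes, in 9 lists by family, were tested across all genes. In all, 110 of 142 listed genes were tested, of which 16 rose (14.5%), 11 fell (10.0%) and 83 did not pass limma at an adjusted p of 0.05, beside 10.9% and 12.9% of all genes. The counts by list below stand beside the same shares of all genes, and no list was tested as a set. The median log2 change was 0.14 over these genes and -0.07 over all genes. Under the authors' scaling alone 7 rose and 24 fell, beside 431 and 2627 of 9472 genes. The number that fell was 4 without R749H replicate 2, beside 826 of 9782 genes. It was 6 without R749H replicate 4, beside 896 of 9605, and 7 without wild-type replicate 2, beside 856 of 9308. Without R749H replicate 3, 14 rose and 8 fell, beside 979 and 1113 of 9763 genes. Of the genes named below, HYOU1, DNAJC11, STUB1 and SERPINH1 were then not past the threshold. By list, the medians ran from -0.31 for the 2 HSP90 genes to 0.35 for the heat shock factors and HSF1 targets, and were 0.29 for the HSP70 family, 0.28 for chaperonins and prefoldin, 0.22 for co-chaperones, 0.04 for small heat shock genes, 0.01 for J-domain genes, -0.02 for mitochondrial genes and -0.15 for genes of the endoplasmic reticulum.

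Of the J-domain genes, 2 of 26 rose and 4 fell. DNAJA1, a cytosolic partner of HSP70, rose from 14.7 ± 3.38 (SD, n = 5) to 40.6 ± 12.1 RPM (SD, n = 4; log2 change 1.44, SE 0.25, limma adjusted p = 0.000834). DNAJB11, a partner of HSPA5 in the endoplasmic reticulum, rose from 76.8 to 147 (log2 change 0.93, adjusted p = 0.000882). DNAJB12 fell from 58.9 to 24.9 (log2 change -1.31, adjusted p = 0.00104), and DNAJC18 and DNAJC11 fell with log2 changes of -0.82 and -0.57. In each of these 5 genes all 4 R749H libraries lay outside the wild-type range.

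Of the other HSP70 genes, HSPA4L and HYOU1, both of the HSP110 kind like HSPH1, rose with log2 changes of 0.88 (adjusted p = 0.0190) and 0.69 (adjusted p = 0.0334), and HSPA13 fell by 0.78 on the log2 scale (adjusted p = 0.0317). The other 4 of the 7 tested did not pass. Neither of the 2 other HSP90 genes and none of 3 small heat shock genes passed the test with limma.

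Of the chaperonin and prefoldin genes, most of whose products help to fold actin and tubulin, 4 of 15 rose and none fell. PFDN4 went from 41.1 ± 5.51 (SD, n = 5) to 85.6 ± 6.90 RPM (SD, n = 4; log2 change 1.06, adjusted p = 0.000504), CCT8 had a log2 change of 1.07 (adjusted p = 0.00225) and PFDN1 one of 0.84 (adjusted p = 0.00633). Of the co-chaperones of HSP70 and HSP90, 5 of 29 rose and 2 fell. TOMM34, which helps bring proteins to mitochondria, rose most clearly, from 24.6 ± 4.19 (SD, n = 5) to 76.0 ± 11.8 (SD, n = 4; log2 change 1.63, adjusted p = 3.97e-05), and SUGT1 and CHORDC1, partners of HSP90, rose by log2 changes of 0.87 and 1.07. PTGES3 and STUB1 fell by 1.29 and 0.58 on the log2 scale, STUB1 from a level of 2216 RPM.

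Of the heat shock factors and known targets of HSF1, 6 of 20 rose and 2 fell, beside 10.9% and 12.9% of all genes. A response of HSF1 was not tested. HSBP1, which binds HSF1, went from 651 ± 171 (SD, n = 5) to 1180 ± 93.9 RPM (SD, n = 4; log2 change 0.90, adjusted p = 0.00364). HSF4, a factor of the same family, fell from 13.1 ± 2.38 to 3.63 ± 1.56 (log2 change -1.93, adjusted p = 0.000713), and SERPINH1, a collagen chaperone, fell by 0.82 on the log2 scale (adjusted p = 0.0350). The list also holds DNAJA1 and CHORDC1. In the endoplasmic reticulum, 2 of 21 genes rose, DNAJB11 and HYOU1, and the stress sensor ERN1 fell by 1.12 (limma adjusted p = 0.0165). For ERN1, 2 of 4 R749H libraries lay outside the wild-type range, and without R749H replicate 4 it was not past the threshold. For SUGT1, CHORDC1 and SERPINH1, 3 of 4 lay outside. Of 11 mitochondrial genes, the protease LONP1 rose with a log2 change of 0.52 (adjusted p = 0.0423) and CLPB fell by 1.49 (adjusted p = 0.0225). CLPB had 3 reads in R749H replicate 3, and its log2 change was -0.92 without that library.

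**Figure D4:**
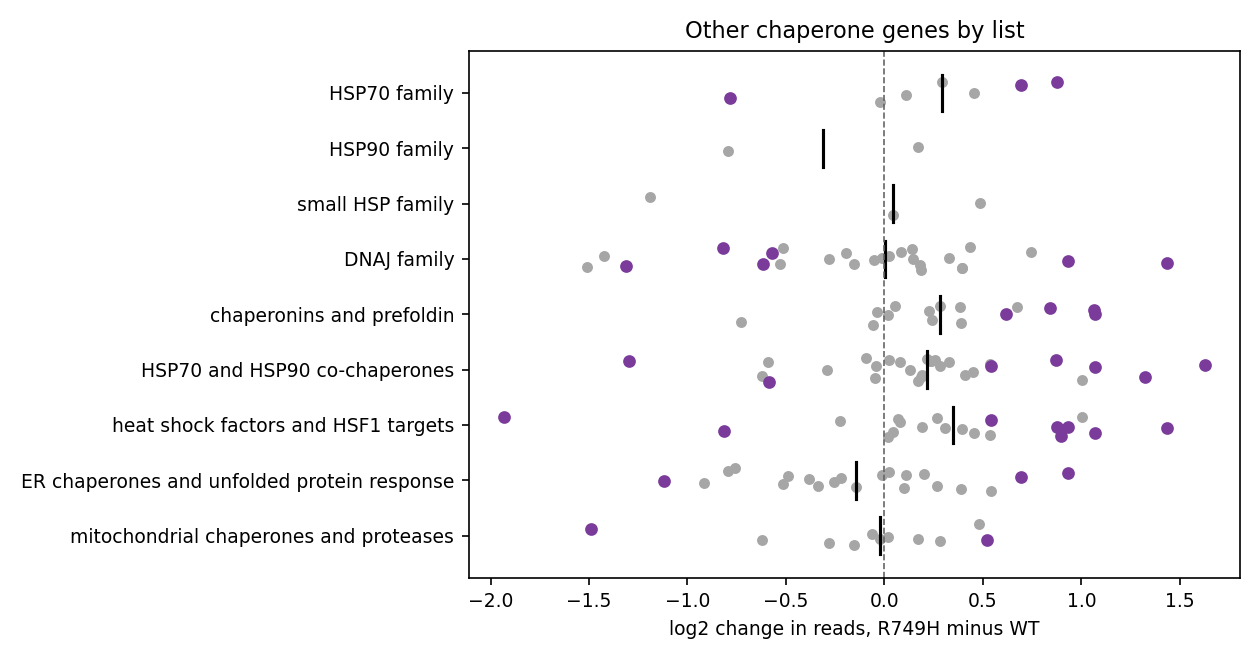
Log2 change in reads, R749H minus WT, of the other chaperone genes tested, 1 point per gene and list, with 9 lists on the vertical axis. Purple points passed an adjusted p of 0.05 (limma), grey ones did not, and black lines are medians. TOMM34 is farthest to the right at 1.63 and HSF4 farthest to the left at -1.93.

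In the positions of their ends, none of 99 other chaperone genes passed limma at an adjusted p of 0.05, beside 0.128% of 7830 genes. This measure counts reads past each gene's median position. Where the most-read end is the distal one, as in DNAJB1, both ends fall on the same side, and a shift between them is missed. The counts are therefore no contrast to DNAJB1. With ends divided at the midpoint, DNAJC5 passed (log2 odds 1.77, limma adjusted p = 0.0132). At an unadjusted p of 0.05 there were 11 of the 99 (11.1%) and 792 of the 7830 (10.1%). The smallest p was that of CCT6A, with a log2 odds of -0.69 (SE 0.16, adjusted p = 0.121) of reads downstream of its median position, a value that did not pass.

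Over the 9 libraries, the genes with levels most like those of DNAJB1 among 9486 were SGTA, EFNB1 and PPP1R37, with Pearson r of 0.954, 0.949 and 0.915 on log2 RPM. For the sum of HSPA1A and HSPA1B they were PSPN, TMEM38A and SLC12A4, with r of 0.961, 0.960 and 0.956. The points share library and scaling, and these values are a description.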

How the data were processed

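Poly(A) RNA of 5 wild-type and 4 R749H libraries was measured by 3' READS. The 4 eNETseq libraries are not analysed here. The values are signal deposited by the authors, namely reads per isoform that they mapped with bowtie to hg19 (GRCh37), kept where non-templated As were found, assigned to a stop codon at most 5000 nt upstream, and scaled to the same poly(A) read total per library. Pooled tables of each cell line were not used.

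Each library's values were divided by the value of 1 read to recover whole reads. Within a tolerance of 0.1 of that value, 100% of the values were whole in every library. Reads were summed per gene name, and log2 RPM, reads scaled to a common library total with TMM factors (edgeR 4.0.16, prior count 0.5, filterByExpr) were compared with limma 3.58.1, two-sided, in R 4.3.3. Benjamini-Hochberg adjustment ran over all genes, and the threshold was 0.05. Limma was used because the deposited values were scaled. edgeR's quasi-likelihood test and DESeq2 1.42.0 on the recovered reads were alternatives. Zones are the most-read position of the pooled reads with all isoforms within 24 nt, and so on, if they held at least 5% of the gene's reads. For shifts, reads past each gene's median position (all libraries together) were tested as log2 odds for genes with a mean of at least 20 reads. The scripts were tested on simulated data.

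One gene of the lists is not reported here and was left out of their counts. The members and lists were chosen with earlier results of these data known. The genes named are the 10 members, the 3 genes with the smallest adjusted p in each direction of each list, and the 3 genes most like DNAJB1 and HSPA1A plus HSPA1B. The replicates are biological by the study. Neither the study nor the labels say whether replicates of a group came from separately made lines. SEs and p-values measure the spread between these libraries and cannot separate the mutation from other differences between the cell lines. The labels also do not say that replicate numbers pair the groups. The deviations of same-numbered libraries had r of -0.08, 0.00, 0.02 and -0.01, so no block was used.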

Additional observations from a re-analysis of the deposited data

Results flagged for a closer look

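In 62 groups of 4 or 5 libraries, 1 library stood apart from the others of its group in 3, and chance flags about 1 in 20 groups. PTGES3 was at 39.7 RPM in wild-type replicate 1, against a group mean of 16.9. LONP1 was at 385 in wild-type replicate 5, below the others. SERPINH1 was at 15.5 in R749H replicate 1, above the other 3. None of the 10 chaperone genes described first was among these, and neither was the share of DNAJB1 ends.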

How the results depend on the processing

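Under the authors' scaling alone, 0 members were past the threshold and higher and 1, HSPB1, was lower (3 and 0 in the report), with 7 and 24 other chaperone genes (16 and 11). Of 9472 genes in all, 431 were then higher and 2627 lower. The share of higher among all calls went from 45.8% to 14.1%, as this scaling shifts the median of all genes. Counts of members are given for completeness, since the contrast chose them. With a replicate block for replicates 1 to 4, 3 members and 12 and 11 other chaperone genes passed. Of 9168 genes in all, 1000 were then higher and 1093 lower. The DNAJB1 distal share differed by -8.99 percentage points. With each library left out, 2 (without wild-type replicate 4) to 3 members were higher and 0 lower, other chaperone genes were 11 to 19 higher and 4 to 13 lower, and the difference in DNAJB1 was -10.7 to -7.04. The count of lower ones was 4 without R749H replicate 2, 6 without R749H replicate 4 and 7 without wild-type replicate 2. Over all genes, 826, 896 and 856 were lower in these settings. The sign of HSPD1 turned to -0.01 without wild-type replicate 3. With ends divided at the midpoint, 1 other chaperone gene, DNAJC5, passed for a shift (log2 odds 1.77, limma adjusted p = 0.0132), chosen after its value was seen, against 0 in the report, and the cause was not tested. Of 22 named other chaperone genes, none changed sign under 19 alternatives and 9 were past the threshold in all. LONP1 was not past it in 10, SERPINH1 in 8, HYOU1 in 6, and HSPA13 and STUB1 in 5.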
